A study of Mus musculus with 8 samples.

Results

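The basophil and mast cell genes examined here were 8 mouse genes chosen by symbol: Prss34, Mcpt8, Cpa3, Hdc, Fcer1a, Ms4a2, Cd200r3 and Gata2. All 8 were found among the 18790 named genes of the count files, and all 8 passed the filter on low counts with 11965 genes in all. RNA was sequenced from 2 groups of sorted cells, both taken from flushed femoral bone marrow of untreated C57BL/6 mice carrying the Csf1r-EGFP transgene, whose Csf1r promoter drives green fluorescent protein (GFP) in monocytes, macrophages and some other myeloid cells. The CD11b+ group was sorted as CD11b+F4/80+Ly6G-GFPloVCAM1+ cells, that is, low for the reporter and negative for the neutrophil antigen Ly6G. The CD11b- group was sorted as CD11b-F4/80+GFP+VCAM1+ cells. Each group had 4 biological replicates, both groups carried the reporter, and the submitters put the name macrophage in quotation marks for both. No source used here gives the age or sex of the mice, or says whether animals were pooled. Levels are CPM, the count of a gene scaled to the total on named genes in its library.

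Basophils and mast cells are granulocytes that bind IgE through a high-affinity receptor and, when the receptor is cross-linked by antigen, release histamine, proteases and lipid mediators from their granules. Basophils mature in the bone marrow and circulate, whereas mast cells complete their maturation in tissues and keep high levels of the receptor tyrosine kinase Kit. In mice the serine proteases encoded by Mcpt8 and Prss34 are products mainly of basophils, while tryptases and chymases mark mature mast cells. The transcription factor GATA2 is needed for both lineages and is also active in stem cells and in early erythroid and megakaryocyte precursors.

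Because GATA factors bind a short word upstream of many basophil and mast cell genes, promoter sequences of the 8 genes were taken from RefSeq (GRCm38.p6) and searched over the 250 bases before each annotated start. The first word was AGATAA, read as TTATCT from the other strand. The next was TGATAA, read there as TTATCA. The remaining words were AGATAG, whose reverse reads CTATCT, as well as TGATAG, whose reverse reads CTATCA. At least 1 match was present in 6 of 8 genes, against 26.5% of 32851 promoter windows of the same length from all genes. Neither the window of Mcpt8 nor the pair of windows of Gata2 held any of these words. Each sequence below runs 5′ to 3′ on the strand of its gene, with the matches in capitals, and all but that of Hdc end at the base before the start.
Prss34 (chr17:25298353-25298393, plus strand): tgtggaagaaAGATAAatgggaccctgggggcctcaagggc
Cpa3 (chr3:20242182-20242237, minus strand): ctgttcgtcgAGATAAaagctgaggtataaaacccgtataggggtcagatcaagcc
Fcer1a (chr1:173227230-173227331, minus strand): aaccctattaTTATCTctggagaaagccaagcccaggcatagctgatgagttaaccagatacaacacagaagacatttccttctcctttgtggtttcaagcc
Ms4a2 (chr19:11623720-11623953, minus strand): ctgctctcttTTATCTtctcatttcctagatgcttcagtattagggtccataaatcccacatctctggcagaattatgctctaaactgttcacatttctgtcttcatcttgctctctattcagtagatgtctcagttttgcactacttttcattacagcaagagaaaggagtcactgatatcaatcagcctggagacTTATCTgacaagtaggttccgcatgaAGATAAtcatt
Cd200r3 (chr16:44943553-44943677, plus strand): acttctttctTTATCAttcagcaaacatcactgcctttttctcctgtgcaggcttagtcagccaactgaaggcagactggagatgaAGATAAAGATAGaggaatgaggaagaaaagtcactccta
Hdc (chr2:126618884-126618909, minus strand): ggggcagggaTGATAGagggctcttt
The match nearest to a start lay 31 bases before it in Prss34, 46 in Cpa3, 92 in Fcer1a and 221 in Hdc, counted to its first base. Ms4a2 and Cd200r3 each held 3 matches, against 6.40% of all windows with 2 or more, and the last pair in Cd200r3 stood side by side. A word for STAT5, TTCNNNGAA, which reads the same on both strands, was in none of the 8 genes and in 7.02% of all windows. These are matches of letters, not measured binding, and the RefSeq build differs from the mm9 build named in the submitters' processing notes.

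Total counts were 36604660 to 47951234 in CD11b+ libraries and 27462607 to 35160747 in CD11b- libraries, and genes with a count numbered 12695 to 13634 in CD11b+ and 13010 to 13624 in CD11b-. A count of 0 allowed up to 3 counts, or 0.0627 to 0.110 CPM in a single library, and since SmartSeq2 reads have no molecular identifiers this floor reflects counting error alone. The least covered gene was Cd200r3, with 60 to 309 counts in CD11b+ libraries and 28 to 173 in CD11b- libraries. The CD11b- libraries stood apart from each other in granulocyte transcripts. Mpo, which encodes the myeloperoxidase of primary granules, was at 5827 and 3966 CPM in CD11b- replicates 1 and 2 and at 1457 and 413 CPM in replicates 3 and 4. For that reason the CPM of each of the 8 genes is given by library, and fold changes are given with and without each of these pairs. In bulk RNA, fewer cells of a type and less RNA per cell cannot be told apart.

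The granule protease genes of basophils varied several-fold within each population and did not differ between the populations beyond that spread. Prss34, a tryptase-like serine protease of mouse basophils, was by far the most abundant of the 8 genes. It stood at 2123, 1042, 1587 and 3683 CPM in CD11b+ replicates 1 to 4, against 4105, 2139, 399 and 193 CPM in CD11b- replicates 1 to 4. The highest and the lowest values of all 8 libraries were both in the CD11b- group, whose replicates 1 and 2 lay within or above the CD11b+ range and replicates 3 and 4 below it. The means were 2109 ± 1138 CPM in CD11b+, against 1709 ± 1820 CPM in CD11b- (SD, n = 4 each). The log2 fold change, CD11b+ over CD11b-, was 0.37 with a standard error (SE) of 0.80 and a 95% interval of -1.42 to 2.16, and it was not called by edgeR's quasi-likelihood test over all tested genes (Benjamini-Hochberg adjusted p = 0.786).

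Mcpt8, the serine protease that marks mouse basophils, had the same order of CD11b- libraries as Prss34, but its highest library of all 8 was CD11b+ replicate 4. Its levels were 90.8, 55.9, 111 and 235 CPM in CD11b+ replicates 1 to 4, against 188, 137, 17.2 and 15.9 CPM in CD11b- replicates 1 to 4. CD11b- replicates 1 and 2 fell inside the CD11b+ range and replicates 3 and 4 below it. With means of 123 ± 78.0 CPM in CD11b+, against 89.5 ± 86.8 CPM in CD11b- (SD, n = 4 each), the log2 fold change was 0.53 (SE 0.77, 95% interval -1.20 to 2.26, edgeR adjusted p = 0.677).

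Cpa3 encodes the carboxypeptidase A of mast cell granules and is also expressed in basophils and their precursors. It was at 35.6, 14.0, 32.5 and 61.2 CPM in CD11b+ replicates 1 to 4, against 81.3, 94.98, 13.5 and 15.4 CPM in CD11b- replicates 1 to 4. Here CD11b- replicates 1 and 2 exceeded all CD11b+ libraries, while replicate 4 lay inside the CD11b+ range and replicate 3 just below it. The fitted log2 fold change was -0.46 (SE 0.66, 95% interval -1.95 to 1.03, edgeR adjusted p = 0.674).

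**Figure D1:**
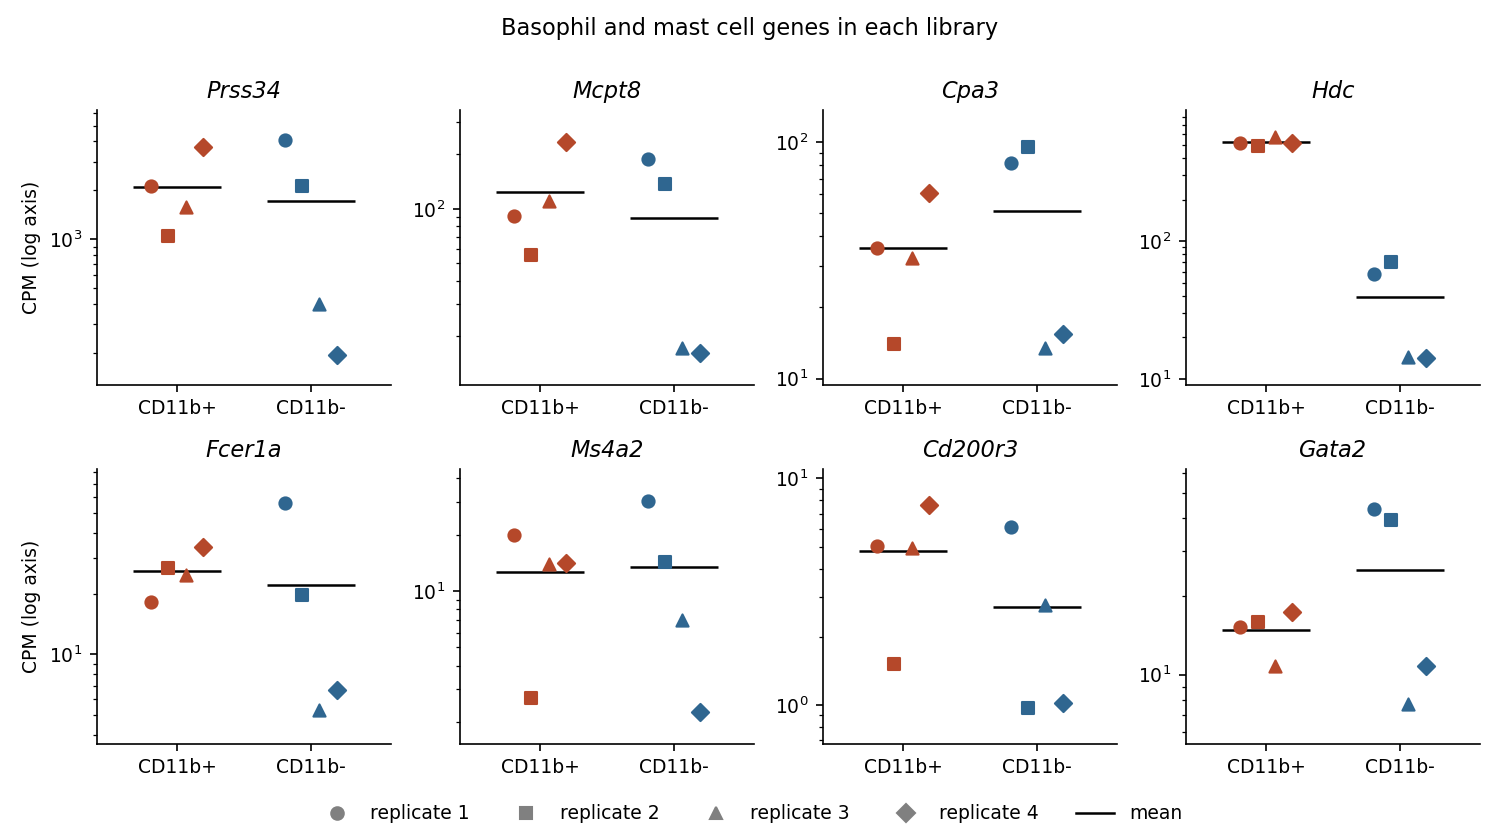
CPM of each of the 8 genes (log axis, own scale in each panel) in the 4 CD11b+ and 4 CD11b- libraries, with a symbol for each replicate and a line at the group mean. Hdc has no overlap between groups (490.1 to 569 CPM in CD11b+ and 14.2 to 71.1 CPM in CD11b-), whereas in the other 7 genes the CD11b- libraries spread across or beyond the CD11b+ range.

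Hdc was the 1 gene of the 8 that was called. It encodes histidine decarboxylase, the enzyme that makes histamine from histidine in basophils and mast cells, and it is also known to be active in immature myeloid cells of mouse bone marrow. Its levels were 513, 490.1, 569 and 513 CPM in CD11b+ replicates 1 to 4, against 57.5, 71.1, 14.3 and 14.2 CPM in CD11b- replicates 1 to 4. The CD11b+ libraries were nearly level with each other and all above the CD11b- libraries, where replicates 1 and 2 were again the higher pair. Mean levels were 521 ± 33.7 CPM in CD11b+, against 39.3 ± 29.4 CPM in CD11b- (SD, n = 4 each), a 13.9-fold difference (log2 3.79, SE 0.53, 95% interval 2.60 to 4.99), and Hdc was called higher in CD11b+ by edgeR with an adjusted p = 0.000456. The 7 others were not called, and this count of 1 stands against 29.7% of all tested genes called in either direction and 14.6% called higher. It was also the only 1 whose groups did not overlap, against 36.5% of tested genes.

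The Hdc call held with an edgeR adjusted p of 0.000455 to 0.00165 when each library was left out in turn. Over all alternatives, DESeq2 and limma included, the adjusted p lay between 1.55e-16 and 0.00228. Summed markers of neutrophils (12 of 12 listed genes measured) moved in the same direction as Hdc, at 67307 to 94434 CPM in CD11b+ libraries and 141 to 736 CPM in CD11b- libraries, and 9 of 12 were called higher with a median log2 fold change of 7.82. Eosinophil markers (10 of 10) summed to 7357 to 21376 CPM in CD11b+ libraries and 71.6 to 476 CPM in CD11b- libraries. Their part in the Hdc difference was not tested.

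The receptor genes among the 8 overlapped between the populations. Fcer1a encodes the alpha chain of the high-affinity IgE receptor, which binds IgE itself. It was at 18.1, 26.9, 24.9 and 34.2 CPM in CD11b+ replicates 1 to 4, against 56.4, 19.8, 5.28 and 6.62 CPM in CD11b- replicates 1 to 4. CD11b- replicate 1 was the highest of all 8 libraries, replicate 2 lay inside the CD11b+ range, and replicates 3 and 4 lay below it. The log2 fold change was 0.32 (SE 0.67, 95% interval -1.19 to 1.82, edgeR adjusted p = 0.783), from means of 26.0 ± 6.61 CPM in CD11b+, against 22.0 ± 23.8 CPM in CD11b- (SD, n = 4 each).

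Ms4a2 encodes the beta chain, which amplifies signals from the same receptor. It was at 19.9, 2.69, 14.0 and 14.1 CPM in CD11b+ replicates 1 to 4, against 30.2, 14.2, 6.98 and 2.27 CPM in CD11b- replicates 1 to 4. CD11b+ replicate 2 was low here as well as in the proteases, and the groups overlapped widely. The log2 fold change was -0.020 (SE 0.79, 95% interval -1.80 to 1.76, edgeR adjusted p = 0.990), an interval that leaves room for more than a 3-fold change either way.

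Cd200r3, which encodes an activating receptor of the CD200 receptor family found on mouse basophils and mast cells, was the lowest of the 8 genes. It was at 5.04, 1.52, 4.93 and 7.61 CPM in CD11b+ replicates 1 to 4, against 6.09, 0.972, 2.75 and 1.02 CPM in CD11b- replicates 1 to 4. It was the exception to the CD11b- order, because replicate 2 was its lowest library and replicate 3 its next highest after replicate 1. The log2 fold change was 0.86 (SE 0.88, 95% interval -1.12 to 2.84, edgeR adjusted p = 0.534).

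Gata2, the lineage transcription factor, was at 15.2, 16.01, 10.8 and 17.4 CPM in CD11b+ replicates 1 to 4, against 43.5, 39.5, 7.69 and 10.8 CPM in CD11b- replicates 1 to 4. CD11b- replicates 1 and 2 were above every CD11b+ library and replicate 3 below the lowest. CD11b- replicate 4 was almost level with that lowest library (10.75 CPM, against 10.83 CPM in CD11b+ replicate 3). Means were 14.8 ± 2.82 CPM in CD11b+, against 25.4 ± 18.8 CPM in CD11b- (SD, n = 4 each), and the log2 fold change of -0.70 was not called (SE 0.55, 95% interval -1.94 to 0.54, edgeR adjusted p = 0.402). Over the 8 genes the median log2 fold change was 0.35, beside -0.013 over all tested genes. That median was 1.203 without CD11b- replicate 1 and 0.0069, 0.036 and 0.016 without CD11b+ replicate 4, CD11b- replicate 3 and CD11b- replicate 4. It was 1.80 without CD11b- replicates 1 and 2 and -0.46 without CD11b- replicates 3 and 4, so its sign depended on the libraries used.

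In the CD11b- group the spread of these genes followed a shared order of libraries. CD11b- replicates 1 and 2 were both above replicates 3 and 4 in 7 of 8 genes, Cd200r3 being the exception, against 19.4% of all tested genes. The highest CD11b- library was replicate 1 in 6 genes and replicate 2 in the other 2. From the highest to the lowest CD11b- library the level changed 4.99-fold in Hdc and 21.3-fold in Prss34, the ends of the range. The coefficient of variation in CD11b- was 73.9% in Gata2 to 108% in Fcer1a, with a median of 89.8% over the 8 genes and 40.6% over all tested genes. In CD11b+ libraries it was 6.45% in Hdc to 63.4% in Mcpt8, with a median of 53.1% over the 8 genes and 29.0% over all tested genes. All 8 genes varied more in CD11b-, as did 63.9% of tested genes.

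Among the CD11b+ libraries, replicate 4 was the highest in 6 genes and replicate 2 the lowest in 6. Some margins were small, as for Gata2 (17.4 CPM in replicate 4, 16.01 in replicate 2) and Hdc (490.1 CPM in replicate 2, 513 in replicate 4). The shares of all tested genes with these positions were not computed. Prss34 spanned 3.54-fold, Mcpt8 4.21-fold, Cpa3 4.38-fold and Ms4a2 7.40-fold among CD11b+ libraries, whereas Hdc spanned 1.16-fold. The 7 genes without Hdc summed to 2307, 1159, 1786 and 4052 CPM in CD11b+ replicates 1 to 4 and to 4511, 2445, 453 and 245 CPM in CD11b- replicates 1 to 4. Most of the sum was Prss34 in every library, so these sums mainly describe that gene.

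The order of the CD11b- libraries was shared with markers of primary granules. These markers (8 of 9 listed genes measured) summed to 7093, 4718, 1755 and 564 CPM in CD11b- replicates 1 to 4, beside 63940 to 90753 CPM in CD11b+ libraries, and all 8 were called higher in CD11b+. Most of the sum was Mpo, the gene that defined the pairs of CD11b- libraries. Without Mpo the sums were 1266, 752, 298 and 151 CPM in CD11b- replicates 1 to 4. CD11b- replicates 1 and 2 were both above replicates 3 and 4 in 7 of the 8 markers, Mpo included, with Fcnb as the exception. Eosinophil markers summed to 476, 331, 71.6 and 82.7 CPM in CD11b- replicates 1 to 4, and 6 of 10 had replicates 1 and 2 above the others. Stem and progenitor markers (10 of 10 measured) had a smaller range, at 567, 558, 431 and 265 CPM, with 7 of 10 in that order. Monocyte and macrophage markers summed to 1796, 1560, 1430 and 1336 CPM, with 6 of 14 in that order. Neutrophil markers did not share it, since they summed to 173, 141, 736 and 191 CPM with the highest value in replicate 3 and 1 of 12 in that order. The part of these cells in the spread of the 8 genes was not tested.

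**Figure D2:**
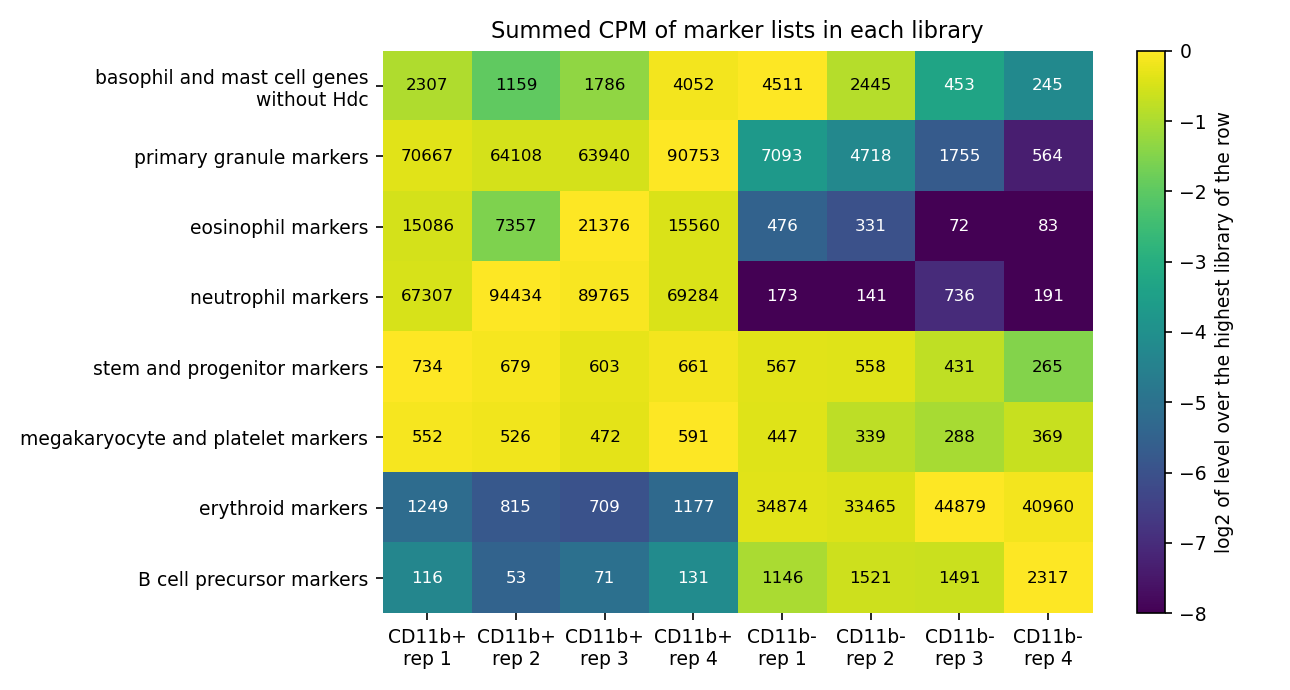
Summed CPM of marker lists (rows) in each library (columns), printed in the cells and coloured by the log2 ratio to the highest library of the row. In the 7 genes without Hdc, CD11b- replicates 1 and 2 are above replicates 3 and 4 (2445 or more against 453 or less), and most of the sum is Prss34. The primary granule markers share that order (4718 or more against 1755 or less), and most of their sum is Mpo. Erythroid markers lie between 33465 and 44879 CPM in all 4 CD11b- libraries.

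Which CD11b- libraries entered the fit decided what the test showed. The pairs were defined by their order in Mpo, a choice made after the data were examined. Replicates 1 and 2 were also the higher CD11b- pair in 7 of the 8 genes themselves. Leaving out either pair therefore shifts the CD11b- level of those genes by construction. Calls gained in these fits show that dependence and are not separate evidence of a difference. Without CD11b- replicates 1 and 2, the pair highest in Mpo, 4 of 8 genes were called, all higher in CD11b+, against 24.8% of the 13320 genes tested in that fit called either way and 13.3% called higher. Mcpt8 was then 7.48-fold higher (log2 2.90, edgeR adjusted p = 0.00886), Prss34 7.08-fold (log2 2.82, adjusted p = 0.0103) and Fcer1a 4.45-fold (log2 2.15, adjusted p = 0.00921). Hdc reached 37.0-fold (log2 5.21, adjusted p = 1.47e-05). The other 4 had log2 fold changes of 1.32 in Cpa3, 1.44 in Ms4a2, 1.32 in Cd200r3 and 0.72 in Gata2 and were not called, with edgeR adjusted p from 0.135 to 0.419.

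Without CD11b- replicates 3 and 4, the pair lowest in Mpo, the directions of several genes turned. Hdc was 8.65-fold higher in CD11b+ (log2 3.11, edgeR adjusted p = 2.83e-05), and Gata2 was called lower in CD11b+ by 2.62-fold (log2 -1.39, adjusted p = 0.0171). That made 1 gene called higher and 1 called lower, against 12.5% and 10.7% of the 13397 genes tested in that fit and 23.2% called either way. Cpa3 had a log2 fold change of -1.21 (adjusted p = 0.107), Ms4a2 of -0.71, Prss34 of -0.47, Fcer1a of -0.45 and Mcpt8 of -0.31, and Cd200r3 alone among the uncalled genes stayed positive at 0.54. Over all alternatives the edgeR, DESeq2 or limma adjusted p ran from 0.00886 to 0.987 for Mcpt8, from 0.0103 to 0.996 for Prss34, from 0.00921 to 0.993 for Fcer1a and from 0.0171 to 0.740 for Gata2. With 2 libraries left in an arm, these fits assume that the pair varies like the other group.

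**Figure D3:**
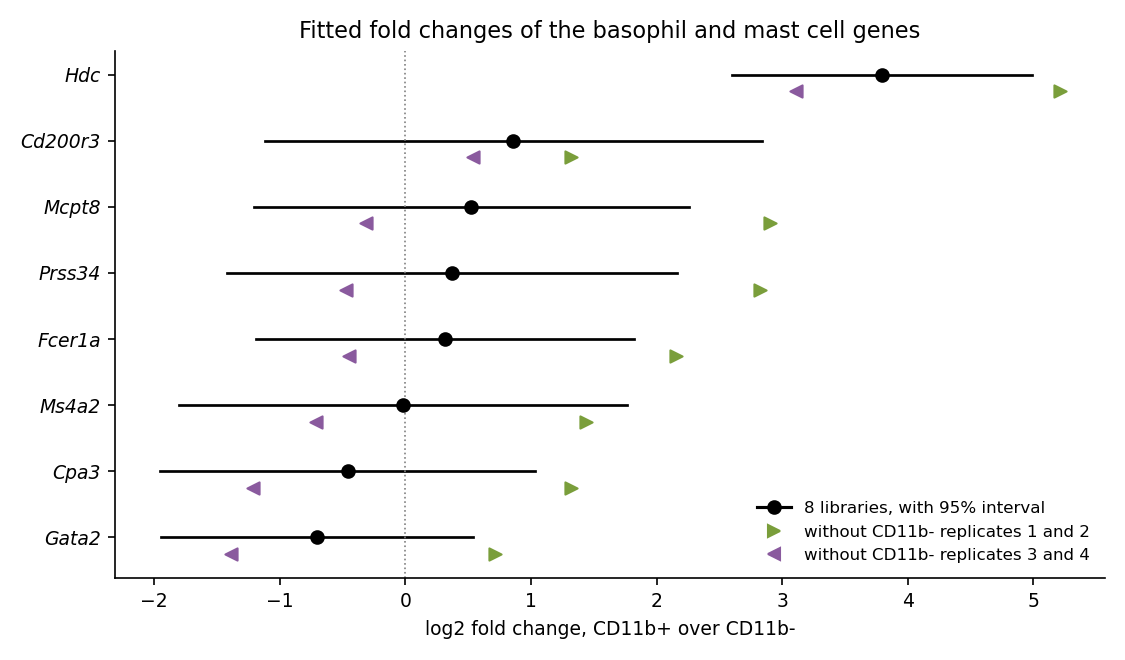
Fitted log2 fold change of CD11b+ over CD11b- for each of the 8 genes, with all 8 libraries (circles, with 95% intervals) and without CD11b- replicates 1 and 2 or 3 and 4 (triangles). The interval of Hdc (2.60 to 4.99) lies above 0, those of the other 7 genes include 0, and in 6 genes the triangles lie on opposite sides of 0.

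Levels between genes were compared per kilobase of merged exons (GENCODE M21 lengths). In CPM per kilobase, Prss34 averaged 1728 in CD11b+ and 1401 in CD11b-, and Mcpt8 was next at 123 in CD11b+ and 89.7 in CD11b-. Hdc averaged 81.6 ± 5.27 in CD11b+, against 6.15 ± 4.601 in CD11b- (SD, n = 4 each). In CD11b+ the others followed with 26.1 for Fcer1a, 23.6 for Cpa3, 4.51 for Ms4a2, 2.75 for Gata2 and 0.798 for Cd200r3. In CD11b- they stood at 33.8 for Cpa3, 22.1 for Fcer1a, 4.77 for Ms4a2, 4.70 for Gata2 and 0.453 for Cd200r3. SDs between libraries were 6.63 for Fcer1a and 12.8 for Cpa3 in CD11b+, and 4.601, 4.34 and 3.48 for Hdc, Ms4a2 and Gata2 in CD11b-. Within libraries, Fcer1a was above Cpa3 in CD11b+ replicates 2 and 3 and below it in replicates 1 and 4. Hdc was above Gata2 in every CD11b- library, whereas Ms4a2 was above Gata2 in CD11b- replicates 1 and 3 only. Hdc per kilobase of merged exons was below Ms4a2 in CD11b- replicates 1 and 3 and above it in replicates 2 and 4. With the longest transcript as length, Hdc was above Ms4a2 in every CD11b- library, so no order of the pair is given there. Cpa3 and Fcer1a also changed places, with Fcer1a above Cpa3 only in CD11b- replicate 1 of the 4 CD11b- libraries.

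Ratios within a library, which do not depend on the scaling between libraries, showed how far the genes kept their proportions. Prss34 exceeded Mcpt8 per kilobase by 9.88-fold to 19.1-fold over all 8 libraries, although Prss34 itself spanned 21.3-fold. The log2 ratio of Mcpt8 to Prss34 was -4.26, -3.93, -3.55 and -3.68 in CD11b+ replicates 1 to 4, against -4.16, -3.68, -4.25 and -3.30 in CD11b- replicates 1 to 4. The groups overlapped throughout. The means were -3.85 ± 0.31 in CD11b+ and -3.85 ± 0.44 in CD11b- (SD, n = 4 each), with a difference of -0.0073 (exact two-sided permutation p = 0.914, 0.914 adjusted over 3 ratios). With 70 splits of 4 against 4 libraries the smallest possible p was 0.0286. A ratio that reached it alone would still not pass 0.05 after adjustment over the 3 ratios.

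The ratio of Cpa3 to Prss34 did not pass the test. Its log2 value was -6.21, -6.53, -5.92 and -6.23 in CD11b+ replicates 1 to 4, against -5.97, -4.81, -5.20 and -3.96 in CD11b- replicates 1 to 4. The means were -6.22 ± 0.25 in CD11b+ and -4.98 ± 0.84 in CD11b- (SD, n = 4 each), a difference of -1.24 (exact two-sided permutation p = 0.0571, adjusted 0.171). CD11b- replicate 1 lay inside the CD11b+ range and the other 3 CD11b- libraries above it. The log2 ratio of the receptor chains, Fcer1a over Ms4a2, was 2.82 ± 1.46 in CD11b+ and 2.13 ± 0.82 in CD11b- (SD, n = 4 each), and the difference of 0.69 was within the spread (exact two-sided permutation p = 0.514, adjusted 0.771). CD11b+ replicate 2, where Ms4a2 was low, had a ratio of 28.2 on the linear scale, against 2.13 to 8.23 in the other 7 libraries.

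Ratios with Hdc were chosen after the data were examined and are given without a test. Hdc stood 24.97-fold to 44.4-fold above Gata2 per kilobase in CD11b+ libraries and 1.12-fold to 1.57-fold above it in CD11b- libraries. In CD11b- the ratio of these genes thus changed little although Hdc spanned 4.99-fold and Gata2 5.66-fold. The log2 ratio of Hdc to Prss34 was -4.25 ± 0.76 in CD11b+ and -7.30 ± 0.98 in CD11b- (SD, n = 4 each).

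**Figure D4:**
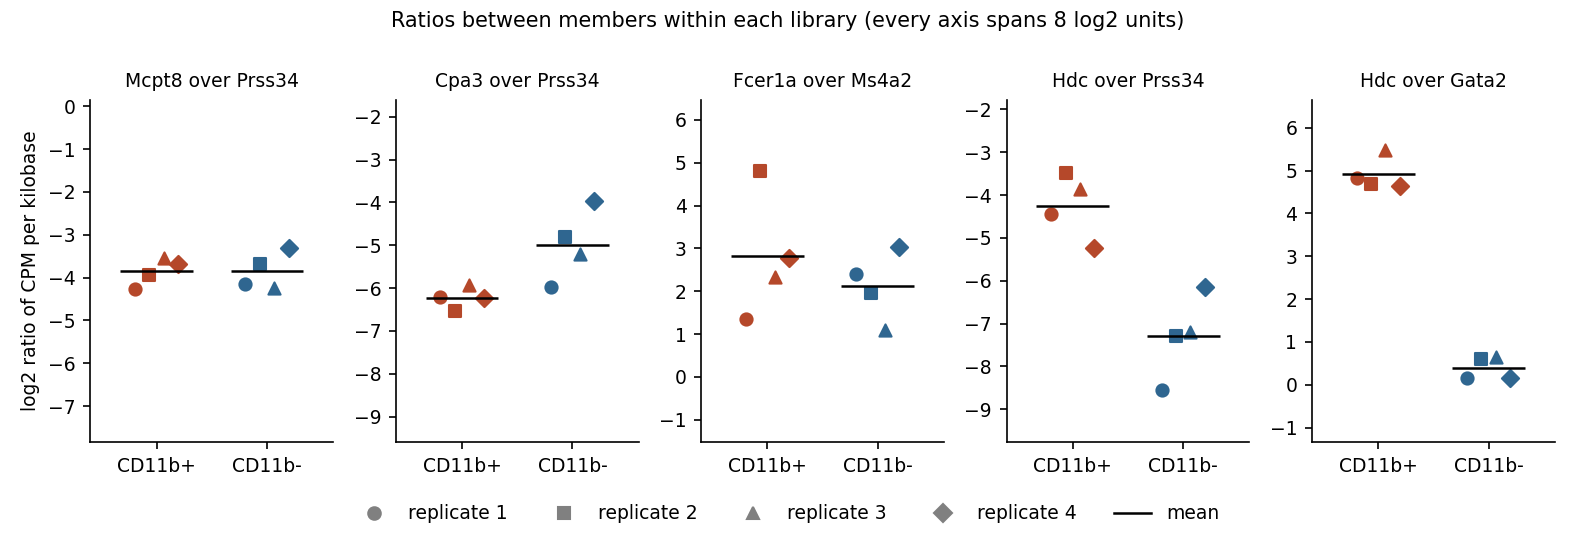
Log2 ratio of CPM per kilobase between pairs of the 8 genes within each library, with a line at the group mean and every axis spanning 8 log2 units. Mcpt8 over Prss34 has the same mean in CD11b+ and CD11b- (-3.85), whereas Hdc over Gata2 lies between 4.64 and 5.47 in CD11b+ and between 0.16 and 0.65 in CD11b-.

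The tryptase and chymase genes of mature mast cells were at or near 0 where they were measured. Tpsb2, a mast cell tryptase, had no count in any of the 8 libraries. Tpsab1, the other tryptase, was at 0 in all 4 CD11b+ libraries and had a count only in CD11b- replicate 1, at 1.13 CPM, and Mcpt2, a mucosal mast cell chymase, was likewise at 2.36 CPM there and 0 elsewhere. Cma1, a chymase, reached 0.985 CPM in CD11b+ replicate 4 and 1.88 CPM in CD11b- replicate 3 and at 0 in the other 6. Of 16 listed mast cell genes, 10 were measured and 4 tested, of which 3 were called higher and 1 lower in CD11b+. Mcpt1, Mcpt4, Mcpt9, Cma2, Tpsg1 and Mrgprb2 were not found among the named genes, so no level is given for them.

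The 4 tested ones are expressed beyond mast cells. Kit, the stem cell factor receptor of mast cells and progenitors, averaged 179 ± 36.2 CPM in CD11b+, against 71.8 ± 36.1 CPM in CD11b- (SD, n = 4 each), a 2.56-fold difference (edgeR adjusted p = 0.0393). That call was lost when any CD11b+ library or CD11b- replicate 2 or 3 was left out, with an adjusted p up to 0.0915. Slc18a2, the vesicular transporter that loads histamine and other amines into granules, averaged 180.3 ± 38.6 CPM in CD11b+, against 63.8 ± 19.9 CPM in CD11b-, 2.93-fold higher in CD11b+ (edgeR adjusted p = 0.00111). Adora3, an adenosine receptor that augments mast cell degranulation, averaged 11.3 ± 6.05 CPM in CD11b+ and had no count in CD11b- (edgeR adjusted p = 0.00047). With 3 counts allowed for the pooled CD11b- libraries, it was at least 486-fold higher in CD11b+. That bound covers counting error alone and leaves out the spread between libraries. Ndst2, which sulphates the heparin of mast cell granules, was 1.92-fold lower in CD11b+ at 58.4 ± 4.85 CPM, against 114.8 ± 11.1 CPM in CD11b- (edgeR adjusted p = 0.00165).

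Among 20 receptor and cytokine genes of basophils, 18 were tested, 2 were called higher, 2 lower and 14 were not called (median log2 fold change 0.75). Csf2rb, the shared beta chain of the receptors for interleukin 3, interleukin 5 and GM-CSF, averaged 85.1 ± 9.20 CPM in CD11b+, against 11.4 ± 7.65 CPM in CD11b- (7.89-fold, edgeR adjusted p = 0.0314). Crlf2, a chain of the receptor for thymic stromal lymphopoietin, averaged 11.4 ± 2.83 CPM in CD11b+, against 4.07 ± 0.91 CPM in CD11b- (2.90-fold, edgeR adjusted p = 0.0408). Both calls were lost in 7 of 8 fits that left out a library: that of Csf2rb remained only without CD11b- replicate 3 and that of Crlf2 only without CD11b+ replicate 1. Il1rl1, the interleukin 33 receptor, was 8.21-fold lower in CD11b+ at 1.79 ± 0.989 CPM, against 15.3 ± 8.43 CPM in CD11b- (edgeR adjusted p = 0.00707), and the integrin Itga4 was 2.99-fold lower in CD11b+ at 27.3 ± 9.44 CPM, against 84.2 ± 23.2 CPM in CD11b- (edgeR adjusted p = 0.00356). Itgb7, an integrin chain abundant on mast cell progenitors, was at 84.1 ± 8.21 CPM in CD11b+, against 118 ± 36.5 CPM in CD11b-, and was not called (edgeR adjusted p = 0.148).

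Fcer1g, unlike the genes of the other receptor chains, was called. It encodes the gamma chain, which serves the IgE receptor and also the IgG receptors of other myeloid cells. It was at 348 ± 43.9 CPM in CD11b+, against 59.95 ± 17.1 CPM in CD11b- (SD, n = 4 each), 6.04-fold higher (edgeR adjusted p = 1.18e-05), whereas Fcer1a and Ms4a2 were not called, and the difference between the chains was not tested. All 23 listed genes of IgE receptor signalling were tested: 10 were called higher, 4 lower and 9 were not called, with a median log2 fold change of 0.78. Vav1, a guanine nucleotide exchange factor, averaged 344 ± 39.1 CPM in CD11b+, against 129.7 ± 40.4 CPM in CD11b- (2.77-fold higher in CD11b+, edgeR adjusted p = 0.000744), and the phosphatase gene Ptpn6 averaged 401 ± 49.2 CPM in CD11b+, against 185 ± 29.3 CPM in CD11b- (2.25-fold higher, adjusted p = 0.000233). Grap2, an adaptor best known from T cells and platelets, was 16.5-fold lower in CD11b+ at 5.78 ± 2.87 CPM, against 98.6 ± 29.0 CPM in CD11b- (edgeR adjusted p = 0.000131).

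Genes that handle histamine and lipid mediators were higher in CD11b+ where they were called at all. Of 15 listed, 11 were tested, 7 were called higher, none was called lower and 4 were not called (median log2 fold change 3.76). Markers of other granulocytes were also higher in CD11b+, with median log2 fold changes of 7.82 for neutrophil, 6.12 for eosinophil and 4.50 for primary granule markers, and their part in the values of this list was not tested. Lta4h, which makes leukotriene B4 and is widely expressed in myeloid cells, averaged 2671 ± 133 CPM in CD11b+, against 203 ± 43.3 CPM in CD11b- (13.6-fold, edgeR adjusted p = 1.35e-06). Alox5ap, the activating protein of 5-lipoxygenase, averaged 769.7 ± 113 CPM in CD11b+, against 38.8 ± 22.7 CPM in CD11b- (20.4-fold, edgeR adjusted p = 0.000153). Hnmt, which degrades histamine, was at 19.4 ± 5.26 CPM in CD11b+ libraries and had counts in CD11b- replicate 1 alone, at 0.423 CPM (edgeR adjusted p = 0.00341). Its fitted fold over all libraries was 193 and depended on that library. Against the other CD11b- libraries alone, with 3 pooled counts allowed, Hnmt was at least 610-fold higher in CD11b+. This bound again covers counting error alone and is not one for the whole CD11b- group.

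Granule packaging genes were mixed. Of 18 listed, 17 were tested, 9 were called higher, 3 lower and 5 were not called (median log2 fold change 1.26). Cd63, a granule membrane tetraspanin used as a marker of basophil activation, averaged 678 ± 113 CPM in CD11b+, against 41.0 ± 28.3 CPM in CD11b- (17.2-fold, edgeR adjusted p = 0.000169). Rab27a, which docks secretory granules, averaged 415 ± 115 CPM in CD11b+, against 24.2 ± 8.73 CPM in CD11b- (17.7-fold, edgeR adjusted p = 1.28e-05). Vamp8, a SNARE of granule fusion, was at 329 ± 37.5 CPM in CD11b+, against 360.1 ± 20.5 CPM in CD11b-, and was not called (edgeR adjusted p = 0.676).

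Of 21 lineage transcription factors, 20 were tested, 6 were called higher, 6 lower and 8 were not called, with a median log2 fold change of 0.30. Gata1, the paralog of Gata2 that drives erythroid, megakaryocyte and mast cell genes, was 13.4-fold lower in CD11b+ at 52.7 ± 14.7 CPM, against 724 ± 118 CPM in CD11b- (edgeR adjusted p = 5.74e-06). Tal1, a partner of GATA factors in erythroid cells, was 39.7-fold lower in CD11b+ at 1.40 ± 0.867 CPM, against 57.9 ± 7.24 CPM in CD11b- (edgeR adjusted p = 0.000111). Myb, a progenitor factor, exceeded its CD11b- level 2.24-fold in CD11b+, at 356 ± 36.8 CPM, against 163 ± 46.7 CPM in CD11b- (edgeR adjusted p = 0.00255). Erythroid markers summed to 709 to 1249 CPM in CD11b+ libraries and 33465 to 44879 CPM in CD11b- libraries, with all 14 called lower in CD11b+, and their part in the Gata1, Tal1 and Gata2 values was not tested.

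Markers of the other cell types that the sorts could hold were as follows. Monocyte and macrophage markers (14 of 14 measured) summed to 2160 to 2544 CPM in CD11b+ and 1336 to 1796 CPM in CD11b-, with 6 called higher, 1 lower and 7 not called. Megakaryocyte and platelet markers summed to 472 to 591 CPM in CD11b+ and 288 to 447 CPM in CD11b-, with 1 called higher and 1 lower of 10 tested. Most of that sum was Rap1b, a small GTPase that is not limited to platelets, at 405 to 493 CPM in CD11b+ and 151 to 290 CPM in CD11b-. Without Rap1b the sums overlapped, at 67.4 to 113 CPM in CD11b+ and 98.9 to 156 CPM in CD11b-. B cell precursor markers summed to 53.2 to 131 CPM in CD11b+ and 1146 to 2317 CPM in CD11b-, with 8 of 9 called lower in CD11b+. Plasmacytoid dendritic cell markers summed to 89.3 to 111 CPM in CD11b+ and 157 to 251 CPM in CD11b-, with 7 of 10 called lower and 1 higher. T and NK cell markers summed to 1137 to 1586 CPM in CD11b+ and 354 to 553 CPM in CD11b-, with 4 of 11 called lower and 1, Nkg7, higher. Nkg7, a granule membrane protein that was also listed among the primary granule markers, made up 1099.5 to 1509 CPM of the sum in CD11b+ and 84.9 to 249.8 CPM in CD11b-. Without it the sums turned round, to 24.6 to 76.5 CPM in CD11b+ and 222 to 303 CPM in CD11b-.

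The genes whose pattern over the 8 libraries was most like the mean of the 8 genes were ranked by the root mean square difference of centred log2(CPM + 1) profiles, among genes with a mean of at least 10 CPM. The nearest were Med27 (0.38), Rpp14 (0.41), Pigu (0.42), Adgrl4 (0.45), Tefm (0.46), Nudt14 (0.46), Rsl24d1 (0.47), Gnpnat1 (0.48), Rapgef3 (0.48) and Emb (0.49). Measured the same way, Mcpt8 stood 0.42 from the mean of the 8 genes it belongs to, Fcer1a 0.43 and Hdc 1.63. For Prss34 alone the nearest were Emb and Sccpdh (0.59 each), Hgf (0.64), Fkbp11 (0.68) and Zfp790 (0.69), and Mcpt8 was closer than any of these at 0.34. These distances describe 8 libraries that share their preparation and carry no test.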

How the data were processed

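Per the labels' protocols, cells were sorted, snap frozen and extracted with Trizol and a column kit, and libraries were made with SmartSeq2, which does not mark strand. The submitters' processing notes name TopHat2, HTSeq 0.10.0, DESeq2 and mm9 without saying what each did. No source used here gives the annotation, the strand setting or how reads mapping to several places were treated. The authors deposited whole-number counts per gene symbol for each library, in files whose names say FPKM, and a CPM table over all libraries. The deposited CPM equal counts over library totals within 0.0005. Rows with numbers for names (27 of 18817, 0.205% to 0.514% of counts) were left out of totals and tests.

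The test was edgeR 4.0.16 in R 4.3.3 (quasi-likelihood, TMM, filterByExpr with a minimum count of 10 and total of 15, prior count 0.125, Benjamini-Hochberg at 0.05 over 11965 genes, no covariate). Genes past it are said to be called. SEs were worked back from the F statistic. Alternatives were RLE size factors, no filter, at least 10 CPM in 4 libraries, DESeq2 1.42.0 (81 genes without an adjusted p), limma 3.58.1 on log2(CPM + 1), the replicate number as a block, each library left out and, added after seeing the data, each pair of CD11b- libraries left out. Scripts were tested on simulated counts. Pairs of replicates differed by 130 to 229 times sampling noise (chi-square over degrees of freedom), so none was counted as a repeat.

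The members and the lists were chosen with earlier results of these data known. Named genes of a list were its 2 most abundant tested genes, the called gene of largest change with a mean of at least 10 CPM, all called genes where these were 5 or fewer, and Kit, Cma1, Tpsb2, Tpsab1, Fcer1g, Gata1 and Mpo. The other mast cell genes at or near 0 were named after their values were seen. Of the 53 genes outside the members that this rule named, not all are described, and 10 listed genes were not found among the named genes. Exon lengths matched 18088 named genes by symbol (96.3%). No exon of another annotated gene overlapped those of the 8 genes.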

Additional observations from a re-analysis of the deposited data

Results flagged for a closer look

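A library was taken as far from the other 3 of its group where its gap to the nearest, over the range of the group, passed Dixon's 95% critical value, and none of the 8 basophil and mast cell genes had one. Of 124 groups of 4 libraries examined among the named genes, 9 had such a library. Chance gives about 1 in 20 for normally distributed values, which does not hold for the 3 cases below where the other libraries were at 0. In CD11b+ these were Adora3 in replicate 3 (20.4 CPM), Crlf2 in replicate 1 (7.17 CPM), Vpreb1 in replicate 1 (0.274 CPM, the others at 0) and Nkg7 in replicate 4 (1509 CPM). In CD11b- they were Vav1 in replicate 3 (69.4 CPM), Ngp in replicate 3 (535 CPM), Tcf4 in replicate 3 (78.9 CPM), Hnmt in replicate 1 (0.423 CPM, the others at 0) and Ear6 in replicate 2 (0.0857 CPM, the others at 0).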

How the results depend on the processing

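Over all tested genes 3035 to 4485 were called under the alternatives, against 3549, and Hdc was called higher under every one. The number of the 8 genes called stayed 1 except without the CD11b- pair highest in Mpo (4) and lowest in Mpo (2). Without these pairs the log2 fold change was 2.90 and -0.31 for Mcpt8, 2.82 and -0.47 for Prss34, 2.15 and -0.45 for Fcer1a, and 0.72 and -1.39 for Gata2, and without the pair highest in Mpo it was 1.32 for Cpa3 and 1.44 for Ms4a2. Leaving out 1 library moved the log2 fold change from -0.016 (without CD11b+ replicate 4) to 1.25 for Prss34, from -0.83 to 0.042 (without CD11b- replicate 2) for Cpa3 and from -0.36 to 0.72 for Ms4a2. Without CD11b- replicate 1 it was 1.16 for Mcpt8, 1.34 for Fcer1a (edgeR adjusted p = 0.0982) and 1.58 for Cd200r3, the highest of these, and the lowest were 0.029 for Mcpt8, 0.010 for Fcer1a and 0.57 for Cd200r3. Leaving out 1 library also moved the log2 ratio difference of Mcpt8 to Prss34 from -0.14 to 0.17. For Ms4a2 limma on log2(CPM + 1) gave 0.12. The causes were not tested.

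The labels do not say whether same-numbered libraries were paired, and the values did not settle it. Same-numbered deviations correlated at 0.0197 to 0.0643, against -0.0537 to 0.0285 for libraries of different numbers. CD11b+ replicates 1 and 3 correlated best with another number, whereas every CD11b- library correlated best with the CD11b+ library of its own number. With the replicate block 3195 genes and 1 of the 8 were called, and the log2 fold change was 0.20 for Ms4a2, 0.97 for Fcer1a and Prss34 and 1.05 for Mcpt8.

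Counts of called list genes moved as follows. For basophil receptor and cytokine genes called higher (2), no filter, the CPM filter and leaving out the pair highest in Mpo gave 1, the replicate block 0, DESeq2 4, limma 5 and leaving out 1 library 0 to 3, and the CPM filter left 1 of 2 called lower. For IgE signalling genes called lower (4), leaving out the pair lowest in Mpo gave 2. Leaving out 1 library gave 0 to 1 histamine and lipid mediator genes called lower (0). For monocyte and macrophage markers called lower (1), the block and leaving out the pair highest in Mpo gave 0, DESeq2 and leaving out the pair lowest in Mpo 2, and 1 library 0 to 2. For stem and progenitor markers, leaving out 1 library gave 1 to 2 and leaving out the pair highest in Mpo 1 called higher (2), while no filter and that pair gave 0, DESeq2, limma and the pair lowest in Mpo 2, and 1 library 0 to 2 called lower (1). For megakaryocyte and platelet markers, limma and the pair highest in Mpo gave 2 called higher (1), and the CPM filter, DESeq2 and limma gave 2 and 1 library 1 to 2 called lower (1). For plasmacytoid dendritic cell markers, the pair lowest in Mpo gave 0 and 1 library 0 to 1 called higher (1), and the CPM filter and the block gave 4 and the pair lowest in Mpo 3 called lower (7). For T and NK cell markers called lower (4), the CPM filter and the pair lowest in Mpo gave 2.

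With the longest transcript as length, levels in CD11b+ were 115 CPM per kilobase for Hdc, 4.16 for Gata2 and 1.23 for Cd200r3. Levels in CD11b- were then 8.69 for Hdc, 7.11 for Gata2 and 5.61 for Ms4a2, so that the mean of Gata2 passed that of Ms4a2. Each of the 8 genes had at least 28 counts in every library, and the effect of depth on their spread was not tested.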
